A study of Mus musculus with 4 samples.

Results

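Sonic hedgehog (SHH) is a secreted protein that patterns the ventral forebrain. The gene set described here held its ligand gene Shh, the receptor genes Ptch1 and Smo, the coreceptor genes Gas1, Cdon and Boc, the transcription factor genes Gli1, Gli2 and Gli3 and the inhibitor gene Hhip. These 10 genes were named by symbol, and all 10 were present among the 43346 features counted in each library. Single-cell RNA was counted in droplets (10x Genomics) from wild-type C57BL/6 mouse forebrain at embryonic stage E12.5. There were 4 libraries, each from tissue pooled over several embryos. The library CTX was of cortex, and the libraries LGE, MGE and CGE were of the lateral, medial and caudal ganglionic eminences. The ganglionic eminences are transient ventral swellings that give rise to the GABAergic neurons of the forebrain, and the cortex gives rise to its excitatory neurons. No genotype, treatment or age differed between the libraries, which were all untreated. Each region had 1 library, so regions were compared without a test, and every interval of a level, share or ratio below covers counting error only, at 95%.

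In the absence of ligand, Patched1 (the product of Ptch1) holds Smoothened (Smo) inactive, and Gli3 and, in part, Gli2 are cut to repressors of transcription. Binding of SHH to Patched1, helped by the coreceptors Gas1, Cdon and Boc, releases Smoothened, and full-length Gli proteins then activate target genes. Ptch1, Gli1 and Hhip are themselves widely used as targets of the pathway, and Patched1 and Hhip limit its activity by binding the ligand. In the telencephalon SHH is known for inducing and maintaining the MGE, and loss of Gli3 is known to disturb dorsal identity.

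Of 4301 to 6953 barcodes per library, 3192 to 4737 were kept, with a median of 6936 to 8235 unique molecular identifiers (UMIs). Cells with Nes, an intermediate filament gene of radial glia, above 1.5 on the scale ln(1 + UMIs per 10000) were called high-Nes cells, and cells with Dcx, a microtubule gene of young neurons, above 1.5 were called high-Dcx cells. In the order CTX, LGE, MGE and CGE there were 882, 582, 514 and 164 high-Nes and 784, 2042, 2177 and 2267 high-Dcx cells. The 17, 74, 25 and 16 cells past both limits were left out of both groups. The gates fitted their names, since the summed level of the progenitor genes Hes1, Hes5, Sox2, Sox9, Vim and Fabp7 was 3681 to 11089 UMIs per 1000000 (CPM) in high-Nes and 642 to 1504 CPM in high-Dcx cells, and that of the neuronal genes Tubb3, Stmn2, Mapt, Rbfox3 and Ina was 226 to 568 against 5034 to 6740 CPM. Sox2 alone parted the gates little in MGE (875 CPM in high-Nes and 844 CPM in high-Dcx cells) and in CGE (866 and 689 CPM). The highest progenitor sum, that of CGE high-Nes cells, was mostly Fabp7, at 6862 CPM. High-Nes cells also held more RNA of other lineages. The summed level of 5 endothelial genes was 2.66 to 56.4 CPM in them and 0.605 to 1.91 CPM in high-Dcx cells, that of 6 pericyte or mesenchyme genes 16.6 to 81.7 against 0.842 to 6.56 CPM, and that of 6 microglia genes 0.401 to 155 against 0.211 to 9.74 CPM. With the 16 to 57 kept cells of these lineages in a library removed, every level of the 10 genes in either gate stayed within the counting interval given for it here.

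Among the gated cells, Shh transcripts were found almost only in the high-Dcx cells of MGE and CGE, and above all in MGE. In high-Dcx cells Shh stood at 20.2 CPM in MGE (95% interval 17.9 to 22.6, 292 UMIs) and at 1.97 CPM in CGE (1.34 to 2.80, 31 UMIs). LGE held 2 Shh UMIs in these cells, which made 0.140 CPM (0.0170 to 0.507), and CTX held 0, where 3 UMIs, the limit used here for a count of 0, would make 0.454 CPM. MGE was thus 10.2-fold above CGE (7.06 to 15.4), and CGE 14.0-fold above LGE (3.57 to 121). The high-Nes cells held 1 Shh UMI in MGE and 0 in CTX, LGE and CGE. In MGE, the library with most of the ligand, the high-Nes level was therefore 0.00992 of the high-Dcx level (0.000250 to 0.0557). In CGE the 0 UMIs of high-Nes cells allow up to 1.99 CPM, which is no lower than the high-Dcx level there. The CGE ratio of high-Nes to high-Dcx had an interval of 0 to 1.32, so the gates could not be told apart in CGE.

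At equal depth the split of MGE was also seen in single cells. Each cell was thinned to 3000 UMIs, and shallower cells were left out, 2 to 27 per library among high-Nes and 13 to 51 among high-Dcx cells. A Shh UMI was then found in 4.28% of 2126 MGE high-Dcx cells (3.46 to 5.23) and in 0.447% of 2235 CGE high-Dcx cells (0.215 to 0.821). It was found in 0 of 512 MGE high-Nes cells, which allows a share of cells with a Shh UMI of up to 0.586%, and in 0 of 771 CTX and 0 of 2004 LGE high-Dcx cells. At their own depth 136 MGE high-Dcx cells held Shh, with up to 9 UMIs in a cell. As a rough measure of free RNA, barcodes with at least 20% hemoglobin UMIs were read in the same way, with no doublets removed. In MGE, 1 of 58 such barcodes held a Shh UMI (1.72%), at a median of 10802 UMIs, of which 1387 were not hemoglobin, against a median of 6353 UMIs in high-Dcx cells. That single UMI made 8.05 CPM of their other UMIs (0.204 to 44.8), a wide interval that holds the high-Dcx level of 20.2 CPM. The high-Nes cells of the same library stood at 0.200 CPM of Shh (0.00507 to 1.115). In CGE, 0 of 21 hemoglobin-rich barcodes held Shh, which allows a share of up to 14.3%, so the background there was not measured closely enough to be set beside the 0.447%. Most of the 422 Shh UMIs of the kept MGE cells lay in high-Dcx cells (69.2%), 30.6% lay in cells past neither gate, and 0.237% in high-Nes cells. The Shh gene (chromosome 5, 28456815 to 28467256, minus strand, GRCm38) overlaps the antisense gene 9530036O11Rik and the long noncoding Gm26894 on the other strand, and whether reads were counted by strand is not stated.

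**Figure D1:**
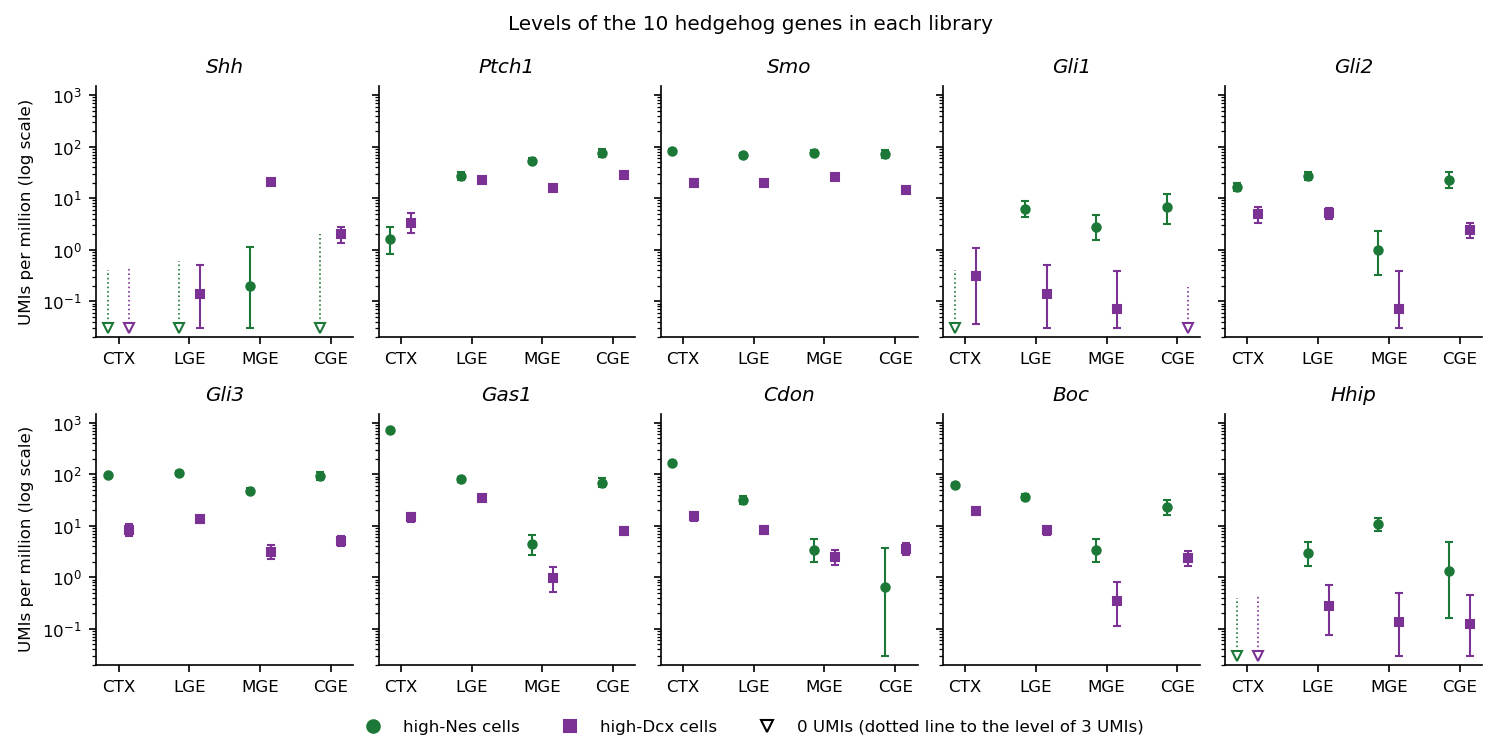
Level of each of the 10 genes in CPM (log scale) in high-Nes cells (circles) and high-Dcx cells (squares) of the CTX, LGE, MGE and CGE libraries, with exact Poisson 95% intervals cut off at the foot of the axis. Open triangles at the foot mark 0 UMIs, with a dotted line to the level that 3 UMIs would make. Shh stands out in MGE high-Dcx cells at 20.2 CPM, whereas Gas1, Cdon and Boc in high-Nes cells are highest in CTX, at 735, 165 and 62.2 CPM.

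Ptch1, the gene of the SHH receptor (chromosome 13, 63508328 to 63573598, minus strand), was low in CTX and higher in each of the eminences. In high-Nes cells it was at 1.59 CPM in CTX (0.822 to 2.78), 27.1 in LGE (22.7 to 32.1), 53.2 in MGE (47.0 to 60.0) and 75.0 in CGE (61.8 to 90.2). Each step of this order was larger than the counting error, with CGE 1.41-fold above MGE (1.12 to 1.76), MGE 1.96-fold above LGE (1.59 to 2.44) and LGE 17.0-fold above CTX (9.43 to 33.8). In high-Dcx cells Ptch1 was at 27.8 CPM in CGE, 22.0 in LGE, 15.8 in MGE and 3.33 in CTX. Here MGE, which held most of the ligand transcripts, was the lowest of the eminences, and LGE was 1.40-fold above it (1.18 to 1.67). The order of CGE and LGE was not firm, since their log2 ratio was -0.029, with an interval that held 0, when cells were thinned to equal depth. After thinning, a Ptch1 UMI was found in 23.5% of CGE, 13.3% of MGE, 5.85% of LGE and 0.468% of CTX high-Nes cells. In each library 1 barcode rich in hemoglobin held Ptch1, which made 4.76% of those of CGE, 1.72% of MGE, 1.64% of LGE and 0.595% of CTX, at a median of 1186 to 1989 UMIs other than hemoglobin. The CTX share of high-Nes cells did not stand clear of that background, which rests on 1 barcode at another depth, and is not read as expression. In the eminences that 1 UMI made 10.9 CPM of the other UMIs in LGE (0.276 to 60.8), 8.05 in MGE (0.204 to 44.8) and 15.6 in CGE (0.395 to 86.9). Of the eminence levels, only that of MGE high-Nes cells lay above its interval. The background was thus not measured closely enough to be set beside the other eminence levels.

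Because Ptch1 is a target of the Gli factors, its promoter window in RefSeq (GRCm38.p6, chr13:63565686-63565985, minus strand, 250 bases before to 50 after an annotated start that lies inside the GENCODE gene span) is shown here together with that of Gli2 (chr1:119053570-119053869, minus strand). Capitals mark the letters CCACCC, the core of the Gli consensus GACCACCCA, on either strand.
Ptch1: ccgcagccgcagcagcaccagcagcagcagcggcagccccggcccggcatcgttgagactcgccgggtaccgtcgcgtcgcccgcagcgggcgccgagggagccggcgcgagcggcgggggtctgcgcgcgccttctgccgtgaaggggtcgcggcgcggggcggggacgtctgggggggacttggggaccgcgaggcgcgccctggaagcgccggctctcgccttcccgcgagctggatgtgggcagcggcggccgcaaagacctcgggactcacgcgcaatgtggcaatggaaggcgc
Gli2: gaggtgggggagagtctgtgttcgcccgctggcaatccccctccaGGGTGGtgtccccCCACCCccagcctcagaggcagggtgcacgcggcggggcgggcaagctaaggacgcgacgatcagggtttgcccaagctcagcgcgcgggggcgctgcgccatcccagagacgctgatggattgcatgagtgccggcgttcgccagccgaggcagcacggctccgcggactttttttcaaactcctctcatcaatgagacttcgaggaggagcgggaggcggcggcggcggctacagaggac
Windows were given for 7 of the 10 genes, Ptch1, Smo, Gli2, Gli3, Gas1, Cdon and Hhip. Those of Cdon (from 35451826) and Gli3 (from 15463473) also lay inside the GENCODE gene spans, which start at 35421128 and 15463235. None of the 7 held GACCACCCA on either strand with up to 1 mismatch, as did 6.74% of 32851 windows of all genes. The shorter CCACCC, which any exact match of the longer motif also contains, was found in 4 of the 7, those of Smo, Gli2, Gli3 and Hhip, and in 31.5% of all windows.

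Smo, the gene of the signal transducer (chromosome 6, 29735503 to 29761365, plus strand), had UMIs in both gates of all 4 libraries. In high-Nes cells it was at 82.1 CPM in CTX, 76.2 in MGE, 71.7 in CGE and 68.0 in LGE, and no library differed from the next in this order beyond counting error, although CTX was 1.21-fold above LGE (1.06 to 1.38). In high-Dcx cells Smo was at 25.8 CPM in MGE, 20.0 in CTX, 19.7 in LGE and 14.3 in CGE, with MGE 1.29-fold above CTX (1.06 to 1.59), LGE 1.38-fold above CGE (1.15 to 1.65) and MGE 1.80-fold above CGE (1.52 to 2.14). The step from CTX to MGE was not firm, since their log2 ratio fell to 0.041 after thinning and to 0.059 at a gate of 2.0. Hemoglobin-rich barcodes held Smo at 26.1 CPM of their other UMIs in CTX (11.25 to 51.4) and 32.2 in MGE (8.77 to 82.4). Neither high-Dcx level of these 2 libraries stood clear of that, nor did the MGE high-Nes level. In LGE and CGE such barcodes held 0 Smo UMIs, which allows up to 32.7 and 46.8 CPM, above the high-Dcx levels there. The inhibitor gene Hhip (chromosome 8, 79965851 to 80058006, minus strand) was highest in the high-Nes cells of MGE, with 10.8 CPM (8.12 to 14.1, 54 UMIs) against 3.01 CPM in LGE (1.68 to 4.96, 15 UMIs) and 1.33 CPM in CGE (2 UMIs). CTX high-Nes cells held 0 Hhip UMIs, which allows up to 0.398 CPM. MGE was 3.59-fold above LGE (2.00 to 6.85). High-Dcx cells held 4, 2 and 2 Hhip UMIs in LGE, MGE and CGE and 0 in CTX. Of all Hhip UMIs of kept cells, 56.3% of 96 in MGE, 42.9% of 35 in LGE and 22.2% of 9 in CGE lay in high-Nes cells, and 41.7%, 45.7% and 55.6% in cells past neither gate.

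The coreceptor genes Gas1, Cdon and Boc were highest in CTX high-Nes cells and low in MGE. Gas1, which encodes a membrane-anchored protein that binds SHH (chromosome 13, 60174405 to 60177365, minus strand), was at 735 CPM in CTX high-Nes cells (716 to 754, 5540 UMIs), 80.1 in LGE (72.4 to 88.3), 69.1 in CGE (56.4 to 83.7) and 4.40 in MGE (2.76 to 6.67, 22 UMIs). CTX was 9.18-fold above LGE (8.29 to 10.2), LGE and CGE did not differ beyond counting error, and CGE was 15.7-fold above MGE (9.83 to 26.1). A Gas1 UMI was found in 83.6% of thinned CTX high-Nes cells (81.0 to 86.1) and in 1.56% of those of MGE (0.677 to 3.06). In CTX, 15 of 168 barcodes rich in hemoglobin (8.93%) held Gas1 too, with 40 UMIs, at 130 CPM of their other UMIs (93.1 to 177). Whether these UMIs came from free RNA was not tested. In MGE, 0 of 58 such barcodes held Gas1, which allows up to 5.17%. CTX high-Dcx cells, at 14.7 CPM of Gas1, lay below the 130 CPM of the hemoglobin-rich CTX barcodes.

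Cdon, whose product is an immunoglobulin-family surface protein (chromosome 9, 35421128 to 35507652, plus strand), was at 165 CPM in CTX high-Nes cells (156 to 175), 31.9 in LGE (27.1 to 37.3), 3.40 in MGE (1.98 to 5.45) and 0.664 in CGE (1 UMI, 0.0168 to 3.70). CTX was 5.18-fold above LGE (4.39 to 6.15) and LGE 9.38-fold above MGE (5.68 to 16.5), and MGE and CGE did not differ beyond counting error. Boc, a relative of Cdon (chromosome 16, 44485049 to 44558897, minus strand), was at 62.2 CPM in CTX (56.7 to 68.1), 36.3 in LGE (31.2 to 42.0), 23.2 in CGE (16.2 to 32.3) and 3.40 in MGE (1.98 to 5.45), and each step of that order was larger than counting error. In high-Dcx cells Gas1 was highest in LGE, at 35.0 CPM against 14.7 in CTX, 7.94 in CGE and 0.967 in MGE. Cdon and Boc were highest in CTX there, at 15.3 and 19.7 CPM. The hemoglobin-rich CTX barcodes held Cdon at 39.1 CPM of their other UMIs (20.2 to 68.3) and Boc at 16.3 CPM (5.29 to 38.0). Neither CTX high-Dcx level stood clear of these. All 3 coreceptor genes thus had their lowest high-Dcx level in MGE, although for Cdon MGE (2.49 CPM) and CGE (3.62 CPM) did not differ beyond counting error.

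The Gli genes differed from each other in how they followed region. Gli3, the main repressor of the family (chromosome 13, 15463235 to 15730026, plus strand), was at 107 CPM in LGE (98.3 to 117), 96.2 in CTX (89.3 to 103), 93.6 in CGE (78.8 to 110) and 48.4 in MGE (42.5 to 54.9) in high-Nes cells. LGE, CTX and CGE did not differ from the next in order beyond counting error, and CGE was 1.93-fold above MGE (1.56 to 2.39). Gli2, the main activator (chromosome 1, 118834132 to 119053619, minus strand), was at 27.3 CPM in LGE, 22.6 in CGE and 16.7 in CTX, again without a step beyond counting error, although LGE was 1.63-fold above CTX (1.27 to 2.10). It was at 1.00 CPM in MGE (5 UMIs, 0.325 to 2.34), and CTX was 16.7-fold above MGE (6.97 to 52.3). Gli1, which amplifies the response and is itself a target, was rare and found in the eminences, with 6.64 CPM in CGE (10 UMIs, 3.18 to 12.2), 6.22 in LGE (31 UMIs, 4.23 to 8.83) and 2.80 in MGE (14 UMIs, 1.53 to 4.70). CTX high-Nes cells held 0 Gli1 UMIs in 7540153, which allows up to 0.398 CPM. LGE was 2.22-fold above MGE (1.15 to 4.52). In high-Dcx cells Gli1 came to 2, 2, 1 and 0 UMIs in CTX, LGE, MGE and CGE. The Gli1 gene (chromosome 10, 127329882 to 127341974, minus strand) overlaps Arhgap9 on the other strand. The hemoglobin-rich CTX barcodes held Gli3 at 19.6 CPM of their other UMIs (7.17 to 42.6). That interval held the CTX high-Dcx level of Gli3, 8.47 CPM, but not its high-Nes level.

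High-Nes and high-Dcx cells were then compared over the 4 libraries, with the library as a block, in edgeR's quasi-likelihood test with Benjamini-Hochberg adjustment over 12335 genes. This asked for a difference shared by regions, and the libraries, not the cells, were the replicates. Of the 10 genes, 7 passed the filter on low counts, and 5 of these were higher in high-Nes cells, namely Gli3, Smo, Gli2, Boc and Gas1. In the same test 27.7% of all tested genes were higher in high-Nes cells and 27.8% were higher in high-Dcx cells. None of the 10 was called higher in high-Dcx cells. The median log2 difference of the 7 was 2.30, and that of all tested genes -0.01. Shh, Gli1 and Hhip did not pass the filter and were not tested.

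Gli3 showed the largest difference among these, with a log2 difference of 3.55 (SE 0.23, adjusted p = 0.000286) and a ratio of 7.99 (LGE) to 18.4 (CGE) in the separate libraries. Smo was higher by 1.83 (SE 0.15, adjusted p = 0.000406), with ratios of 2.96 in MGE to 5.02 in CGE. Gli2 was higher by 2.43 (SE 0.33, adjusted p = 0.00195) and Boc by 2.30 (SE 0.33, adjusted p = 0.00247), each in 4 of 4 libraries beyond counting error. Gas1 was higher by 3.01 (SE 0.85, adjusted p = 0.0291), and its ratio ran from 2.29 in LGE (2.00 to 2.62) to 50.1 in CTX (41.0 to 61.9). Gas1 lost its call without MGE (log2 difference 3.17, adjusted p = 0.0623) and without CGE (2.97, adjusted p = 0.105), and remained called without CTX (1.96, adjusted p = 0.0209) and without LGE (3.90, adjusted p = 0.0195).

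Ptch1 and Cdon were not called by that test. Ptch1 had a log2 difference of 0.77 (SE 0.44, adjusted p = 0.189), and its high-Nes over high-Dcx ratio lay beyond counting error in 2 of 4 libraries. The ratio was 3.38 in MGE (2.82 to 4.05) and 2.70 in CGE (2.17 to 3.32), 1.23 in LGE (0.997 to 1.51) and 0.478 in CTX (0.216 to 1.01, from 12 and 22 UMIs). In CTX both levels, 1.59 and 3.33 CPM, lay within the interval of the hemoglobin-rich barcodes (3.26 CPM, 0.0825 to 18.2). Without CTX Ptch1 was called with 1.07 (SE 0.32, adjusted p = 0.0416). Cdon had 1.65 (SE 0.72, adjusted p = 0.102), with ratios of 10.8 in CTX (8.84 to 13.4) and 3.85 in LGE (3.02 to 4.93), 1.37 in MGE (0.720 to 2.50) and 0.183 in CGE (0.00456 to 1.06, from 1 and 57 UMIs). Among the genes not tested, the ratio of Gli1 was 44.3 in LGE (11.3 to 382), while CGE held 10 UMIs in high-Nes and 0 in high-Dcx cells, and that of Hhip was 78.2 in MGE (20.6 to 662) and 10.7 in LGE (3.41 to 44.4).

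**Figure D2:**
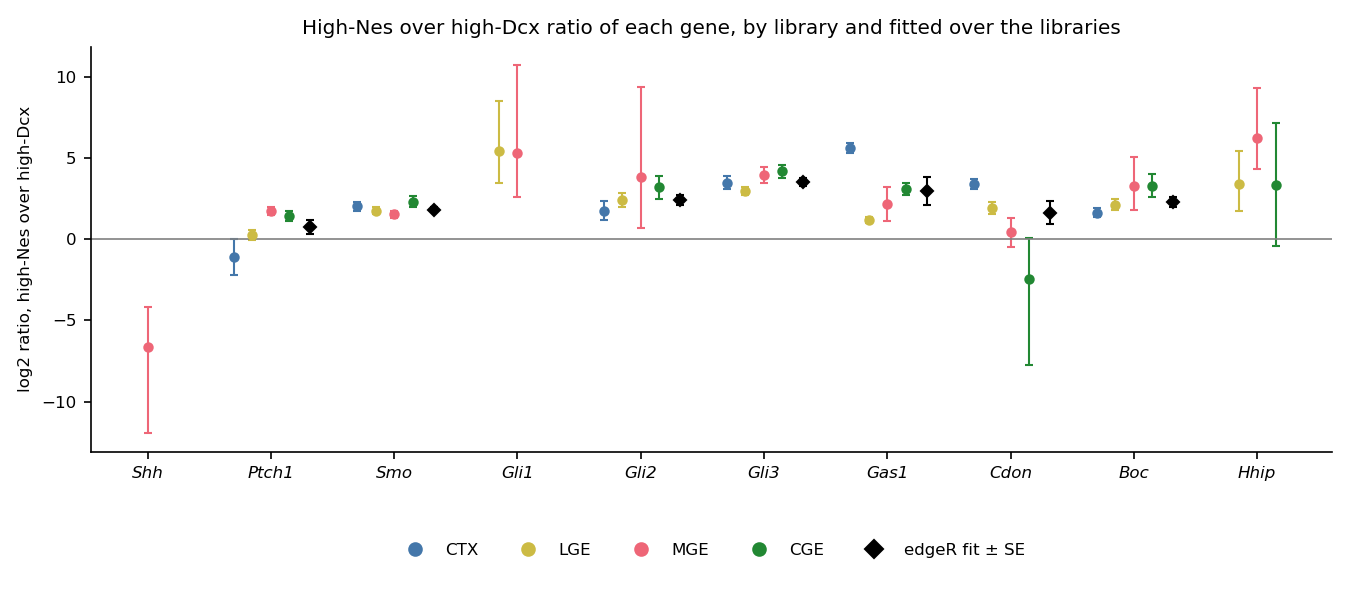
Log2 ratio of the high-Nes to the high-Dcx level of each gene in each library (coloured circles, exact 95% intervals) and the edgeR estimate over the libraries (black diamonds, with SE) for the 7 genes tested. Libraries with 0 UMIs in a gate are left out. All 4 libraries lie above 0 for Smo, Gli2, Gli3, Gas1 and Boc, whereas CTX for Ptch1 and CGE for Cdon lie below 0 with intervals that reach above it.

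A further 28 genes of hedgehog release, reception and the primary cilium, where the pathway signals, were read in the same test. The files held 27 of them, and 23 were tested. Of these, 6 were higher in high-Nes and 9 in high-Dcx cells (26.1% and 39.1%, beside 27.7% and 27.8% of all genes), and 8 were not called. The median log2 difference of the 23 was -0.21. Among those higher in high-Nes cells, the largest differences were those of Evc and its partner Evc2, which build a ciliary complex that relays the Smoothened signal, with 2.78 (SE 0.20, adjusted p = 0.000326) and 2.06 (SE 0.25, adjusted p = 0.00140), and of Gpc3, a cell-surface glypican that competes for the ligand, with 2.13 (SE 0.60, adjusted p = 0.0278). Evc was at 13.3 to 22.9 CPM in the 4 high-Nes sums and at 1.46 to 3.39 CPM in the high-Dcx sums. Gpc3 was at 20.6 CPM in CTX high-Nes cells and at 1.99 to 5.20 CPM in those of the eminences. Kif7, a ciliary kinesin that regulates the Gli proteins, Tulp3 and Spop were also called higher in high-Nes cells.

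Among those higher in high-Dcx cells, the largest differences were those of Scube1, of a family of secreted proteins whose member Scube2 helps to release SHH, by -2.36 (SE 0.41, adjusted p = 0.00494), of the kinase gene Stk36 by -1.47 (SE 0.35, adjusted p = 0.0140), and of the kinesin gene Kif3a, needed for building cilia, by -1.37 (SE 0.08, adjusted p = 0.000205). Scube1 was at 22.2 CPM in LGE and 22.8 in CGE high-Dcx cells, and at 7.53 to 9.07 CPM in those of MGE and CTX. Gpr161, a ciliary receptor that restrains the pathway, stood at 16.2 to 28.0 CPM in high-Dcx against 7.80 to 9.02 CPM in high-Nes cells. The genes Gsk3b, Arl13b, Mgrn1, Prkar1a and Csnk1a1 made up the rest. Sufu, which binds and restrains the Gli proteins, was not called, at 16.6 to 26.9 CPM in high-Nes and 14.7 to 19.8 CPM in high-Dcx cells. The other hedgehog ligand genes Ihh and Dhh were too rare to be tested, with at most 0.254 and 0.200 CPM in any of the 8 sums.

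High-Dcx cells were divided further, following the classes of the study, into cycling cells like those of the subventricular zone (Mki67 and Ccnd2 above 0.5, Mapt and Rbfox3 below 0.5 on the scale of the gates) and postmitotic cells like those of the mantle zone (Nes, Hes5, Mki67, Ccnd1 and Ccnd2 below 0.5). In the order LGE, MGE and CGE there were 387, 206 and 71 cycling and 560, 842 and 1205 postmitotic cells. CTX had 14 cycling cells and was left out of this comparison. In MGE Shh rose over these classes. It was at 0.200 CPM in high-Nes cells, 1.03 CPM in cycling cells (2 UMIs, 0.125 to 3.72) and 22.7 CPM in postmitotic cells (113 UMIs, 18.7 to 27.3). The cycling and postmitotic classes thus held 2 and 113 of the 292 Shh UMIs of MGE high-Dcx cells. The rest, which were the larger part, lay in high-Dcx cells of neither class, so MGE Shh was not confined to the postmitotic class. In CGE, 26 of the 31 Shh UMIs of high-Dcx cells lay in the postmitotic class, and the cycling class held 0. Those 0 UMIs, in 71 cells, allow up to 4.09 CPM, above the CGE postmitotic level of 3.355 CPM. No rise could therefore be read in CGE.

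Gli3 and Gli2 took the opposite course. Gli3 was 3.07-fold (LGE, 2.52 to 3.77), 5.53-fold (MGE, 3.38 to 9.65) and 3.81-fold (CGE, 2.33 to 6.62) higher in high-Nes than in cycling cells, and 13.1-fold (LGE), 8.70-fold (MGE) and 10.0-fold (CGE) higher in cycling than in postmitotic cells. Gli2 in LGE was at 27.3, 13.0 and 0.297 CPM in the 3 classes and in CGE at 22.6, 9.55 and 0.645 CPM. Smo was lower at each step in all 3 eminences, with 10.4 CPM in LGE, 20.9 in MGE and 11.6 in CGE postmitotic cells. Ptch1 was still read in postmitotic cells, at 24.0 CPM in LGE (19.1 to 29.9), 15.5 in MGE (12.2 to 19.4) and 24.4 in CGE (21.0 to 28.1). In LGE its postmitotic level was above that of the cycling cells, with a ratio of cycling to postmitotic of 0.637 (0.443 to 0.910), in CGE the order was the reverse, at 1.85 (1.23 to 2.68), and in MGE the classes did not differ beyond counting error. Each postmitotic Ptch1 level lay within the wide Ptch1 interval of the hemoglobin-rich barcodes of the same library. Gas1 in LGE was at 80.1, 60.4 and 19.6 CPM.

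**Figure D3:**
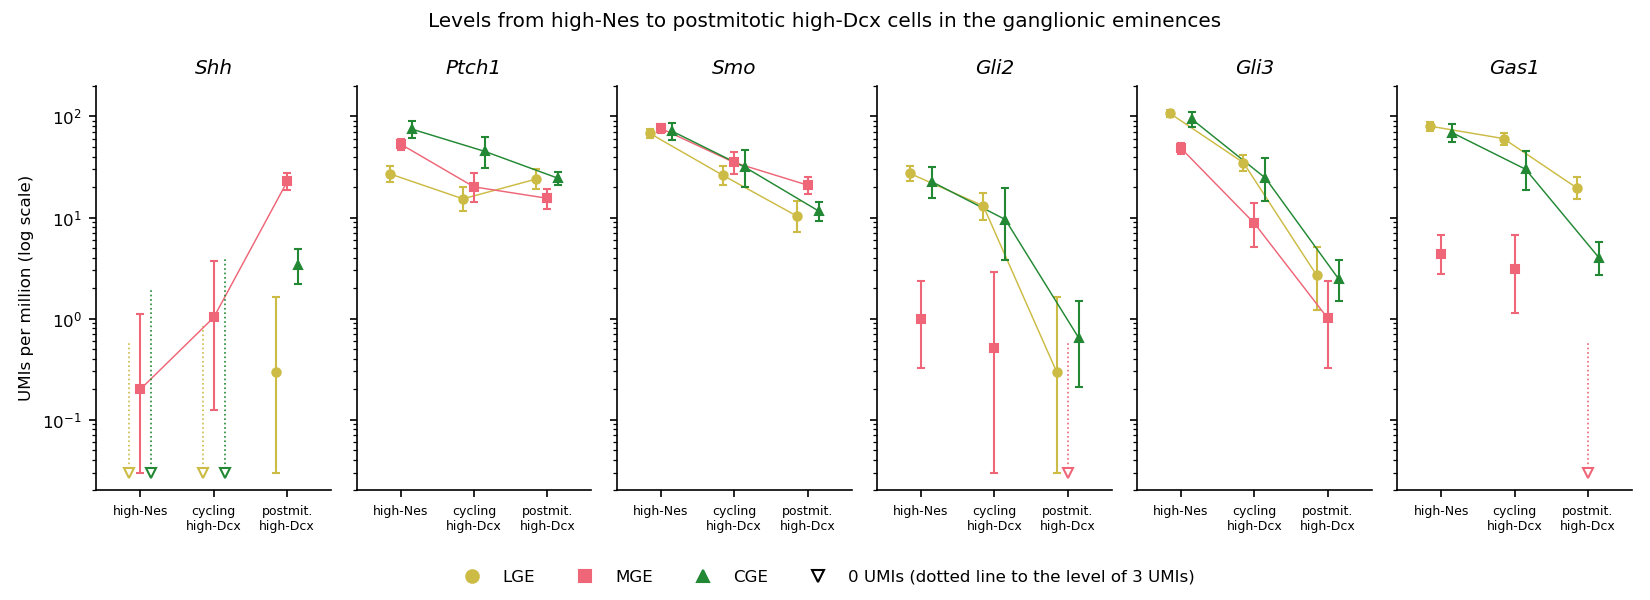
Levels of Shh, Ptch1, Smo, Gli2, Gli3 and Gas1 in CPM (log scale) in high-Nes, cycling high-Dcx and postmitotic high-Dcx cells of LGE (circles), MGE (squares) and CGE (filled triangles), with exact Poisson 95% intervals cut off at the foot of the axis and open triangles for 0 UMIs. Lines join libraries with a UMI in every class. Shh in MGE goes from 0.200 to 22.7 CPM while Gli3 there goes from 48.4 to 1.01 CPM, and Ptch1 stays between 15.3 and 75.0 CPM.

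The MGE high-Dcx cells that held a Shh UMI were compared with those that did not, at equal depth (91 and 2035 cells), over genes of MGE neuron lineages. This is a description within 1 library, and UMIs of 1 cell are not independent. Of 15 listed genes with at least 20 UMIs, 7 were higher in the Shh cells beyond counting error, 6 were lower and 2 (Sst and Meis2) were neither. Lhx8, a transcription factor of cholinergic and other projection neurons of the MGE, was at 1125 CPM in Shh cells and 280 CPM in the others (ratio 4.01, 3.54 to 4.53) and was found in 82.4% and 28.7% of them. Zic1 was 4.84-fold higher (3.69 to 6.26), Gbx1 8.60-fold (3.70 to 18.4, from 10 UMIs) and Th 4.57-fold (1.96 to 9.49, from 9 UMIs). The MGE factors Nkx2-1 (1.33-fold) and Lhx6 (1.26-fold) and the GABA-synthesis gene Gad2 (1.31-fold) were only slightly higher.

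Other listed genes were lower in the MGE cells with Shh. Npy, an interneuron neuropeptide gene, had a ratio of 0.375 (0.275 to 0.501), and Maf, a factor of MGE interneurons, 0.379 (0.234 to 0.582). Nr2f1 and Nr2f2, which are high in the caudal eminence, had ratios of 0.335 (0.236 to 0.461) and 0.251 (0.101 to 0.521). Nr2f1 was also found in 44.0% of the MGE cells without Shh. The ratio was 0.324 (0.105 to 0.764) for Isl1 and 0.0403 (0.00102 to 0.225, from 1 UMI) for Ebf1. The receptor Ptch1 was found in 4.40% of the Shh cells and 4.72% of the others (ratio 0.895, 0.239 to 2.36), a difference not detectable at this depth. In CGE only 10 thinned high-Dcx cells held Shh. They held 0 UMIs of Lhx8, Nkx2-1 and Zic1, and all 10 held Nr2f1, which was found in 90.8% of the other CGE high-Dcx cells. Their Ptch1 level was 167 CPM, from 5 UMIs in 4 cells, against 25.2 CPM in the others (ratio 6.62, 2.12 to 15.8).

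**Figure D4:**
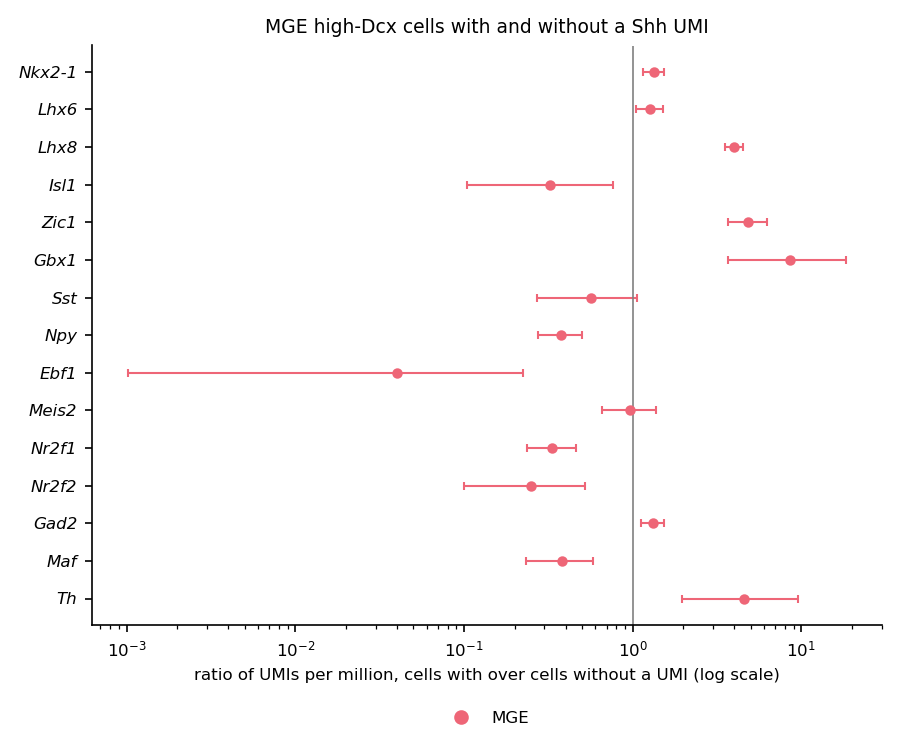
Ratio of the level in MGE high-Dcx cells with a Shh UMI (91 cells) to that in cells without (2035 cells), on a log scale, for the listed lineage genes with at least 20 UMIs, with exact 95% intervals. Gbx1, Zic1, Th and Lhx8 lie to the right of the line at 1, at 4.01 to 8.60, and Npy, Nr2f1, Nr2f2, Isl1, Maf and Ebf1 to its left, at 0.0403 to 0.379.

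High-Nes cells with a Ptch1 UMI were compared with those without in the same manner over dorsal and ventral patterning genes. In MGE (68 and 444 cells) 2 of 8 genes were higher and 1 was lower. Nkx6-2, a homeobox gene of the border between MGE and LGE, was at 68.6 CPM with and 23.3 CPM without Ptch1 (ratio 2.95, 1.45 to 5.71), Olig1 was 3.59-fold higher (2.03 to 6.19), and Nkx2-1, which specifies the MGE, had a ratio of 0.710 (0.557 to 0.894). Nkx6-2 was found in 10.3% of the cells with Ptch1 and 4.95% of those without. For Olig1 the shares were closer, at 8.82% and 6.76%, so that its 22 UMIs in cells with Ptch1 lay in few cells. In LGE (33 and 531 cells) 1 of 6 genes was higher, and it was again Nkx6-2, at 60.6 against 9.42 CPM (ratio 6.44, 2.05 to 17.6, from 6 UMIs). In CGE (38 and 124 cells) none of 5 was higher, and Lhx2, a dorsal telencephalic factor, was lower with a ratio of 0.599 (0.352 to 0.971). The radial glial gene Fabp7 was higher with Ptch1 in all 3, with 2.01-fold in MGE, 1.53-fold in LGE and 1.31-fold in CGE, and was found in 72.1% and 67.1% of the MGE cells with and without Ptch1.

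The 10 LGE high-Nes cells with a Gli1 UMI carried Nkx6-2 at 200 CPM (6 UMIs) against 9.02 CPM in the 554 others (ratio 22.2, 7.04 to 60.4), and of the 6 patterning genes compared no other lay beyond counting error. In MGE, 5 high-Nes cells held Gli1 and none of 8 patterning genes differed beyond counting error, and in CGE 1 cell did. Over all such comparisons of cells with and without a member UMI, 377 ratios were computed, so that intervals that narrowly leave out 1 are to be read with that number in mind.

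**Figure D5:**
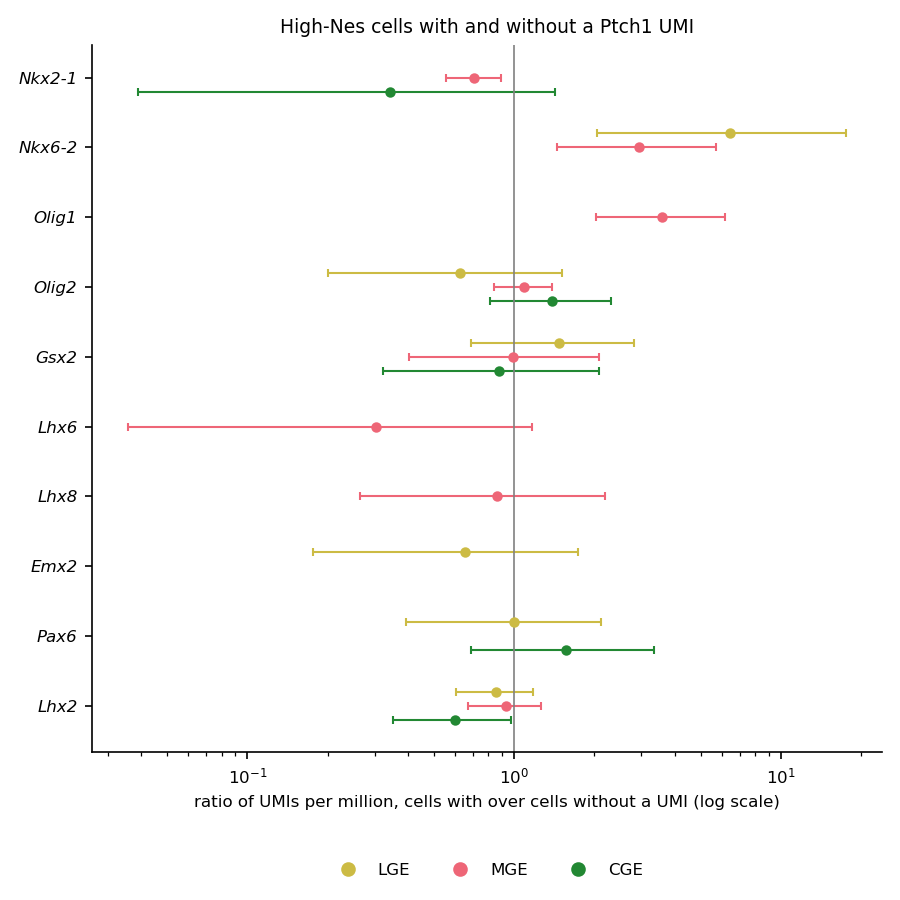
Ratio of the level in high-Nes cells with a Ptch1 UMI to that in cells without, on a log scale, for ventral and dorsal patterning genes with at least 20 UMIs in LGE (33 and 531 cells), MGE (68 and 444) and CGE (38 and 124), with exact 95% intervals. Nkx6-2 lies to the right of the line at 1 in LGE and MGE, at 6.44 and 2.95, and Nkx2-1 in MGE lies to its left at 0.710.

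For each member that reached 10 CPM in at least 1 of the 8 sums, the genes with the most similar pattern over those sums were listed by the Pearson correlation of log2(CPM + 1), among 5181 genes that reached 50 CPM. These sums share 4 libraries and both gates, so the values are descriptions only. The closest gene was Fmr1 for Smo (r = 0.995), Fzd8, a Wnt receptor gene, for Gli3 (0.994), Emx2, a dorsal patterning factor, for Boc (0.975), Gps1 for Cdon (0.965), Dlk1, a Notch-family ligand gene, for Ptch1 (0.963), Arl2 for Gas1 (0.954), Rai14 for Gli2 (0.954), Tiparp for Shh (0.952) and Hibadh for Hhip (0.919). The next closest were Bcl2l12, Tomm40, Ppp2r4, Ppp2r2a, Selt, Ppp1r1a, Ube2j2, Ik and Ctc1, in the same order, with r from 0.917 to 0.994. Gli1 stayed below 10 CPM and was not compared.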

How the data were processed

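RNA was counted in 4 droplet libraries of E12.5 wild-type mouse forebrain. The deposited values were raw UMI counts per gene and barcode, which the authors made with Cell Ranger (version 3.0.0 in the submitters' processing notes, 3.0.2 in the file headers), default parameters and the GRCm38 (mm10) genome. The annotation release and the use of strand are not given in the sources used here. The labels describe cells sorted as live, whereas the methods of the study describe unsorted wild-type cells, and this was not settled.

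Cells entered the analysis with over 1500 and under 4500 genes, under 5% mitochondrial and under 1% Hbb UMIs, and 122 to 275 predicted doublets per library (simulated pairs, at a rate of 0.8% for every 1000 barcodes) were removed. Libraries held 31451467 to 49794765 UMIs, and pairs of libraries shared 4 to 15 barcode sequences. Positions came from GENCODE M21 by gene ID, which matched 42462 of 43346 features.

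Counts were summed per library and gate and tested with edgeR 4.0.16 in R 4.3.3 (filterByExpr, TMM, quasi-likelihood, library as block, adjusted p below 0.05), a procedure tested on simulated data. Levels have exact Poisson, shares Clopper-Pearson and ratios conditional binomial intervals, computed in Python 3.11.15 with scipy 1.17.1. A count of 0 was given a floor of 3 counts. As alternatives, RLE scaling, DESeq2 1.42.0, no low-count filter, gates at 1.0 and 2.0, other cell filters, thinning and leaving out each library were run. The genes named were the 10 members, the 3 listed pathway genes with the largest called difference in each direction, the 2 genes most similar to each member, and listed lineage and patterning genes with at least 20 UMIs, together with other listed genes given for context. Members and lists were chosen with earlier results of these data known. A few genes of these lists are not reported here and were left out of the counts.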

Additional observations from a re-analysis of the deposited data

How the results depend on the processing

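No paired analysis beyond the library block was made because the labels give no replicate numbers. Between 4 and 8 members were called higher in high-Nes cells when 1 library was left out, against 5 over all libraries. The 8 came without CTX, where Ptch1, Gli1 and Hhip joined the calls, and the 4 came without MGE or without CGE, where Gas1 was lost (adjusted p = 0.0623 and 0.105). Without the filter on low counts Gas1 was also lost (adjusted p = 0.159), Gli1 (log2 4.81, adjusted p = 0.0318) and Hhip (4.27, adjusted p = 0.00259) were called higher in high-Nes cells, and 1 member, Shh, was called higher in high-Dcx cells (-6.43, adjusted p = 0.000347), against 0 with the filter. Cdon was called at a gate of 2.0 (1.98, adjusted p = 0.0357) and after thinning (2.18, adjusted p = 0.0279). Gli3, Smo and Boc were called under all 14 alternatives, and Gli2 under the 13 in which it was tested. Leaving out 1 library gave 2630 to 3557 genes higher in high-Nes cells and 2619 to 3648 higher in high-Dcx cells. The log2 ratio of CGE to LGE for Ptch1 in high-Dcx cells reversed to -0.029 (-0.36 to 0.30) after thinning, and the cause was not tested. Of 560 levels recomputed, 51 left their counting interval, 23 of them at a gate of 2.0, 19 after thinning, 6 at a gate of 1.0 and 3 without an upper gene limit. Shares of cells rise with depth, and 95 of 160 recomputed at another depth left their interval. Members with few UMIs, above all Shh outside MGE and CGE, Gli1 and Hhip, are limited by depth, and with 1 library per region no difference between regions can be set against the spread between embryos.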

Other observations

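High-Dcx cells with a Ptch1 UMI were also compared with the others, in comparisons added to those set at the start. In MGE (100 and 2026 cells) the cells with Ptch1 carried more Nr2f2 (213 against 93.1 CPM, ratio 2.29, 1.74 to 2.97), Gsx2 (5.59, 2.21 to 12.53, from 8 UMIs), Nr2f1 (1.47, 1.25 to 1.71) and Meis2 (1.84, 1.41 to 2.37), and less Lhx8 (0.664, 0.509 to 0.851) and Sst (0.0504, 0.00127 to 0.282, from 1 UMI). The shares of cells were close for Nr2f2 (18% with and 15.6% without Ptch1) and Lhx8 (29% and 31.1%), so these ratios rested on UMIs per cell rather than on how many cells held the gene. In LGE (148 and 1856 cells) the striatal gene Ebf1 was higher with Ptch1 (759 against 562 CPM, ratio 1.35, 1.20 to 1.51). In CGE (164 and 2071 cells) Meis2 was higher (1.34, 1.22 to 1.47), and Sst (0.417, 0.335 to 0.514) and Nkx2-1 (0.435, 0.197 to 0.839) were lower.

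Only 9 thinned high-Dcx cells of CTX held Ptch1. They carried the MGE-lineage genes Sst (630 against 95.4 CPM, ratio 6.60, 3.78 to 10.8) and Lhx6 (111 against 18.8 CPM, ratio 5.91, 1.17 to 18.5, from 3 UMIs) at higher levels than the 762 others, Lhx2 at a lower level (0.201, 0.0547 to 0.516), and 0 UMIs of the cortical gene Emx1, which stood at 178 CPM in the others. Sst was found in 33.3% of the 9 cells and Lhx6 in 11.1%, which is 1 cell, so these ratios rest on UMIs of few cells that are not independent. The Ptch1 level of CTX high-Dcx cells, 3.33 CPM, also lay within the interval of the hemoglobin-rich CTX barcodes (0.0825 to 18.2). Tbr1, of cortical excitatory neurons, was found in 55.6% of the 9, at 333 against 305 CPM (ratio 1.09, 0.498 to 2.09), and the intervals of Gad2 and Npy held 1. Of the 34 CGE high-Nes cells with Gli3, none held a UMI of Nkx2-1, which stood at 54.7 CPM in the 128 others (ratio 0, 0 to 0.723). Only 11.7% of those others held Nkx2-1. The 31 CGE high-Nes cells with Gas1 held 0 Nkx2-1 UMIs too (ratio 0, 0 to 0.8115), so this was not particular to Gli3.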
